A study of Mus musculus with 12 samples.

Results

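Tram2 encodes a multi-pass protein of the endoplasmic reticulum membrane that belongs to the family of the translocating chain-associated membrane proteins, which sit beside the Sec61 channel through which new secretory and membrane proteins enter the reticulum. It has been studied mainly in cells that make type I collagen, where it was described as a partner of the calcium pump encoded by Atp2a2 and as a target of the bone transcription factor Runx2. Tet enzymes oxidise methylated cytosine, which opens a way to its removal, and bisulfite reads do not separate methylated from hydroxymethylated cytosine.

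The entries described here are the differentially methylated CpGs that the deposited lists assign to Tram2, at any distance. There were 23 such entries of 31671 in the 5 lists, at 8 different CpGs of 22659, and Tram2 was 1 of 9883 genes named. In the DKO list the gene names did not belong to the coordinates of their rows, so CpGs were taken there by position, within the gene or 50 kb of it. The members were chosen on the same values that are given below, which are therefore a description and carry no test.

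RRBS was performed on genomic DNA of 12 undifferentiated ESC clones. There were 3 clones each of WT and Tet1-/- cells, and 2 each of Tet2-/- cells, of DKO cells lacking Tet1 and Tet2 and of TKO cells lacking all Tet genes. All came from 1 parental clone of a 129 derived (129/SVj) line with eGFP knocked in at Pou5f1 and were grown on gelatin with serum and LIF. WT is this unedited line, and the knockout clones were isolated from it after transfection of Cas9 and guides to the Tet genes. For 3 samples (1 titled DKO and both titled TKO) title and genotype field give different knockouts, and groups were formed by title. The values come from the authors and give, in percentage points, how far methylation differed between a pair of genotypes, 4 lists being against WT and 1 being Tet2-/- against Tet1-/-, where a positive value means higher methylation in the first group named. The lists hold only CpGs with a difference of at least 25 points that passed the authors' q-value. They hold no level, read depth or value per clone, so the depth behind a value is unknown and no spread over clones can be given.

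The listed CpGs lay upstream of the gene. In mm9, Tram2 (ENSMUSG00000041779.4) occupies positions 20986377 to 21069310 of chromosome 1 on the reverse strand, and the distances in the lists refer to a TSS at position 21069306. Of the 8 CpGs, 6 fell within 22 bp of each other, from 1167 to 1189 bp upstream of the TSS, 1 lay 783 bp upstream within the interval annotated as the promoter, and 1 lay 45574 bp upstream. Of the 6 clustered CpGs, the 4 nearest to the TSS are annotated as a (CGTG)n simple repeat and the other two as intergenic. The sequences are shown because the repeat and the restriction site beside it set which CpGs a read could carry. They are the forward strand of mm9, 5′ to 3′, with the listed CpGs in capitals.
Clustered CpGs, chr1:21070467-21070571: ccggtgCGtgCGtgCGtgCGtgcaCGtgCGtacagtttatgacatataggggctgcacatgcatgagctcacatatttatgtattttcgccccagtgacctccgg
CpG 783 bp upstream, chr1:21070057-21070126: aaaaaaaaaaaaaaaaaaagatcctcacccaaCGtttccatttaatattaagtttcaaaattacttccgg
CpG 45574 bp upstream, chr1:21114850-21114898: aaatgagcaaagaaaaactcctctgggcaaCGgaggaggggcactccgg

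All 3 sequences end in CCGG, the site cut by MspI, the usual enzyme of RRBS, and the first also starts with it. The first sequence is thus a single MspI fragment of 101 bp, and its 6 listed CpGs lie 6 to 28 bases from its left end. The libraries were read for 38 bases from each end, and with the first 6 bases of read 1 clipped, so that 1 read can carry 5 or all 6 of them, depending on the strand. Their values therefore share reads and are not independent of each other. The fragment holds 8 CpGs in reach of the reads. The 2 that were in no list are the one in the MspI site itself and the one 17 bases from the right end, at position 21070554. The first 4 listed CpGs are 4 bp apart in a run of 4 copies of the unit TGCG (positions 21070471 to 21070486), and the last 2 lie just past its end. The 24 bp from the first to the last listed CpG had an observed over expected CpG ratio of 1.87, against 0.52 for the stretch from 1000 to 1500 bp upstream as a whole. These 24 bp were cut to start and end on listed CpGs, which raises the ratio. The whole fragment had a ratio of 1.15.

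Tet1-/- against WT had gains at 4 of the 6 clustered CpGs. In order of distance from the TSS, the differences in the authors' deposited table were 30.5 points at 1175 bp, 51.7 points at 1179 bp, 54.1 points at 1185 bp and 30.4 points at 1189 bp upstream. The 2 middle values stood well above the outer 2, and their mean was 41.7 ± 13.0 points (SD over 4 CpGs). All 4 entries were higher in Tet1-/- cells, where 65.6% of the entries of the whole list were. Since listing chose these CpGs and neighbours share reads, nothing is read from that comparison.

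Tet2-/- against WT had the most entries and the largest values. The differences in the authors' deposited table were 51.2 points at 1167 bp, 50.9 points at 1171 bp, 59.5 points at 1175 bp, 82.4 points at 1179 bp, 63.0 points at 1185 bp and 51.1 points at 1189 bp upstream. All 6 clustered CpGs were thus above 50 points, with a peak at the fourth and a mean of 59.7 ± 12.2 points (SD over 6 CpGs). The CpG 783 bp upstream, 384 bp nearer to the gene than the cluster, had 27.6 points, close to the minimum of the list, and was listed for no other genotype. The CpG 45574 bp upstream had -28.6 points and was the only Tram2 entry against WT with a loss. In all, 7 of 8 entries were higher in Tet2-/- cells, where 77.7% of the list were.

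DKO against WT had gains at the same 6 clustered CpGs as Tet2-/- against WT. The differences in the authors' deposited table were 40.1 points at 1167 bp, 27.8 points at 1171 bp, 56.5 points at 1175 bp, 58.3 points at 1179 bp, 30.4 points at 1185 bp and 32.9 points at 1189 bp upstream, with a mean of 41.0 ± 13.4 points (SD over 6 CpGs). The highest value was again at the fourth CpG, and the value at 1171 bp was nearest to the minimum of the list. All 6 entries were higher in DKO cells, where 64.8% of the list were.

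TKO against WT had no Tram2 entry. Of the entries in the TKO list 58.6% were higher, and the nearest to the cluster lay 145 kb away, at position 20925505. Among 326 CpGs listed for Tet1-/-, Tet2-/- and DKO cells together, 117 were also listed for TKO, and the 4 such CpGs of Tram2 were not. A CpG missing from a list may have had too few reads, a difference under 25 points or a q-value above the threshold, and the lists do not say which. Both TKO samples are among those whose genotype field names another knockout.

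**Figure D1:**
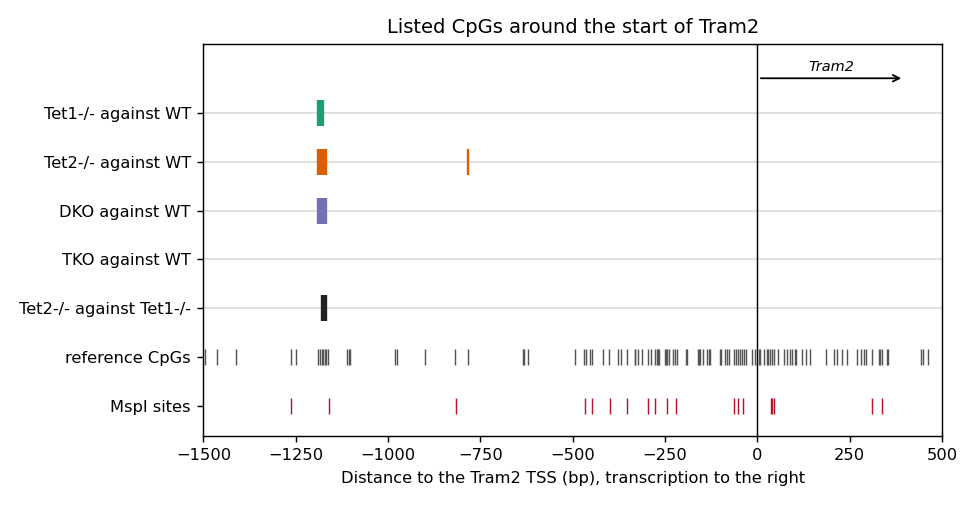
Listed CpGs of each of the 5 lists (rows) by distance to the Tram2 TSS in bp, with all reference CpGs and MspI sites in the lower rows and transcription to the right. The entries of 4 lists stack between 1167 and 1189 bp upstream, Tet2-/- against WT has 1 more at 783 bp, the TKO row is empty, and no list has an entry in the CpG-dense stretch around the TSS.

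The start of the gene itself had no entry in any list. From 500 bp before to 500 bp after the TSS the reference holds 86 CpGs, of which 38 lie within read reach in 7 MspI fragments of 40 to 350 bp, and 0 were listed. From 500 to 1500 bp before the TSS there are 23 CpGs, 10 of them in reach, and 7 were listed in at least 1 list. The gene body, from 20986377 to 21069310, has 1001 CpGs with 40 in reach and 0 listed. These counts stand against a low background. Of all CpGs in reach by the same rule, 1.56% of 1368954 were listed in at least 1 list, and the share was 0.241% within 500 bp of a protein-coding TSS, 1.26% from 500 to 1500 bp before it and 1.55% in gene bodies. A count of 0 among 38 or 40 CpGs is therefore ordinary and says nothing particular about Tram2, and the 7 listed CpGs are those the choice of members fixed. The 300 bp from position 21069257 to 21069556, which hold the TSS and lie mostly upstream of it, had a GC content of 79.7%, against 52.5% for the fragment with the cluster. Reach was computed from the reference as 38 bases from either fragment end, and the clipped bases of read 1 were counted as in reach. Whether a given CpG was covered in these libraries is not in the lists.

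The direct comparison of Tet2-/- with Tet1-/- asked where the single knockouts differ, and it again listed the cluster. Tet2-/- was higher by 36.2 points at 1167 bp, 35 points at 1171 bp, 29.1 points at 1175 bp and 30.65 points at 1179 bp upstream, in the authors' deposited table. These 4 values lay close together (mean 32.7 ± 3.41 points, SD over 4 CpGs), but the list holds no difference under 25 points. The clustered CpGs at 1185 and 1189 bp were not in it. Tet2-/- against WT spread more widely at the same 4 CpGs, from 50.9 to 82.4 points. Tet1-/- against WT was listed only at those 1175 and 1179 bp upstream. The CpG 45574 bp upstream was lower in Tet2-/- by -29.0 points. Of the 5 entries, 4 were higher in Tet2-/-, where 67% of this list were.

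The direct list gave 2090 positions at forward and 2036 at reverse cytosines, while the 4 lists against WT gave positions at forward cytosines alone. Whether reads of both strands were pooled under a position is not in the lists. For its 4 clustered CpGs the direct list gave the cytosine of the reverse strand. At the 2 of them that were also in both single-knockout lists, Tet2-/- minus WT less Tet1-/- minus WT equalled the direct value to within 0.001 points (29.1 points at 1175 bp and 30.65 points at 1179 bp). Over all lists this held for 53 of 148 CpGs, with a median deviation of 4.53 points and a largest of 50.2 points. Where it holds, a value missing from a list can be found by subtraction. On that basis Tet1-/- minus WT was 15.0 points at 1167 bp and 15.9 points at 1171 bp upstream, both under the minimum of the list, and 0.427 points at 45574 bp upstream. Tet2-/- minus Tet1-/- was 8.86 points at 1185 bp and 20.7 points at 1189 bp, also under the minimum. Whether the subtraction holds at these CpGs could not be checked. Whether the deviations over all lists go with the strand was not tested.

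With the values by subtraction, all 6 clustered CpGs were higher in Tet1-/- than in WT cells, by 15.0 to 54.1 points, and all 6 were higher in Tet2-/- than in Tet1-/- cells, by 8.86 to 36.2 points (mean 26.8 ± 10.3 points, SD over 6 CpGs). DKO minus Tet2-/-, found in the same way, was negative at all 6, from -32.6 to -3.07 points (mean -18.7 ± 10.4 points, SD over 6 CpGs). DKO minus Tet1-/- was positive at 5 of the 6 and ranged from -23.7 points at 1185 bp to 26.0 points at 1175 bp (mean 8.04 ± 18.3 points, SD over 6 CpGs). As listed against WT, the value of Tet2-/- was the highest at each of the 6 CpGs, and DKO came nearest at 1175 bp (DKO minus Tet2-/- of -3.07 points). No subtraction with DKO could be checked against a direct list, so the order of DKO and Tet1-/- is not settled by these values. All of them rest on 2 or 3 pooled clones per genotype, and a difference between genotypes and a difference between clones cannot be told apart.

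**Figure D2:**
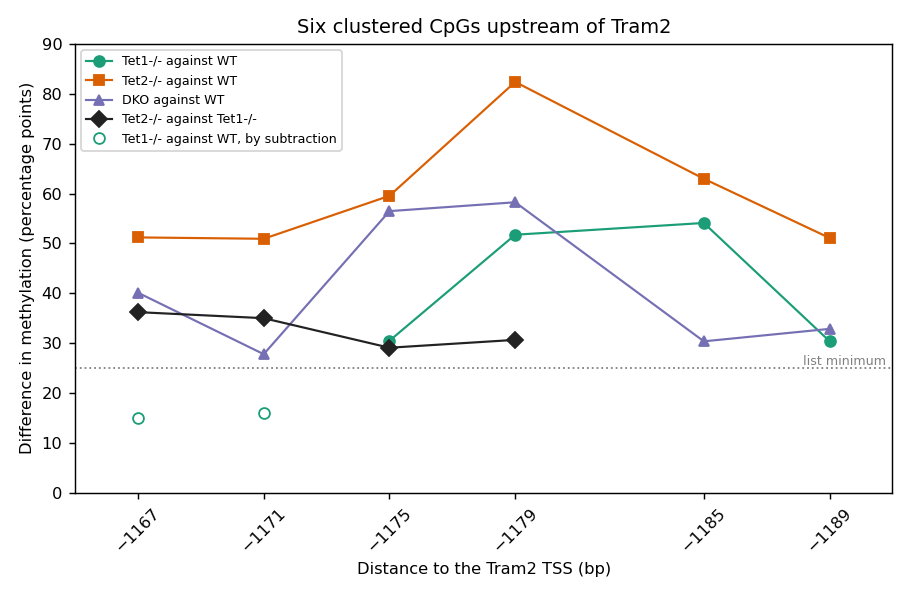
Difference in methylation in percentage points (y axis) at the 6 clustered CpGs by distance to the Tram2 TSS in bp (x axis), 1 line per list, with open circles for Tet1-/- against WT by subtraction and a dotted line at the minimum of 25 points. Tet2-/- against WT lies highest at every CpG, with 82.4 points at 1179 bp upstream, and the open circles lie at 15.0 and 15.9 points.

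A large difference limits the levels it can come from, because methylation cannot pass 0 or 100%. At the CpG 1179 bp upstream the gain of 82.4 points leaves WT at no more than 17.6% and Tet2-/- at no less than 82.4%. If WT had the same level in each list, Tet1-/- lay between 51.7 and 69.35% and DKO between 58.3 and 75.9% at this CpG, so that the ranges of WT and Tet2-/- did not meet those of the other genotypes. At the other 5 CpGs the upper limit for WT was between 37.0 and 49.1%, and that for Tet2-/- was 100%. At 1185 bp upstream WT was at most 37.0%, Tet1-/- at least 54.1% and Tet2-/- at least 63.0%. These are limits from arithmetic on the authors' values and not measured levels, and they carry no error because the depth is unknown.

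**Figure D3:**
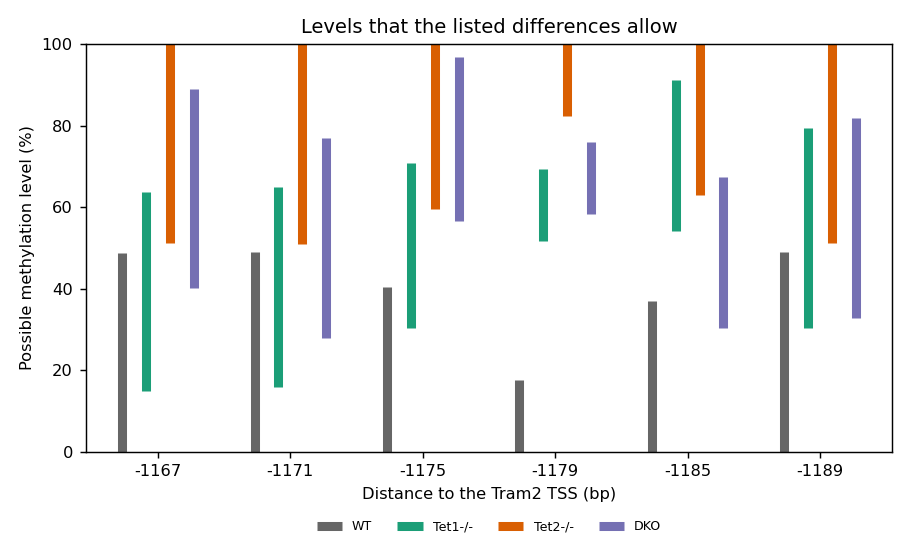
Range of methylation levels in percent (y axis) that the differences allow for WT, Tet1-/-, Tet2-/- and DKO at the 6 clustered CpGs, by distance to the Tram2 TSS in bp (x axis), assuming the same WT level in each list. Bars span the lowest to the highest possible level and are not error bars. The Tet1-/- bars at 1167 and 1171 bp upstream rest on values by subtraction, which could not be checked there. At 1179 bp upstream WT ends at 17.6% and Tet2-/- starts at 82.4%.

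Few places in the lists held as many CpGs, but Tram2 was chosen from these lists and its 6 clustered CpGs share reads. Few fragment ends could hold so many. In the reference 21294 of 889796 ends of MspI fragments (2.39%) had 7 or more CpGs in 38 bases. Nothing is therefore read from the rank. With neighbouring CpGs joined into regions at gaps of up to 1000 bp, the Tram2 region had 7 CpGs in the Tet2-/- list, and 3 of 5980 regions there held 7 or more, Tram2 included. In the DKO list it had 6 CpGs, the most of any region, and shared this number with 2 others of 6181. In the Tet1-/- list it was 1 of 6 regions with 4 or more among 5093, and in the direct list 1 of 11 among 3698. Of the regions with 4 or more CpGs that were all higher, 6 of 21 in the Tet2-/- list had a mean at least as high as that of Tram2 (55.1 points), 16 of 19 in the DKO list and 2 of 3 in the Tet1-/- list, Tram2 included. In the direct list all 9 did, so that Tram2 had the smallest mean there.

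**Figure D4:**
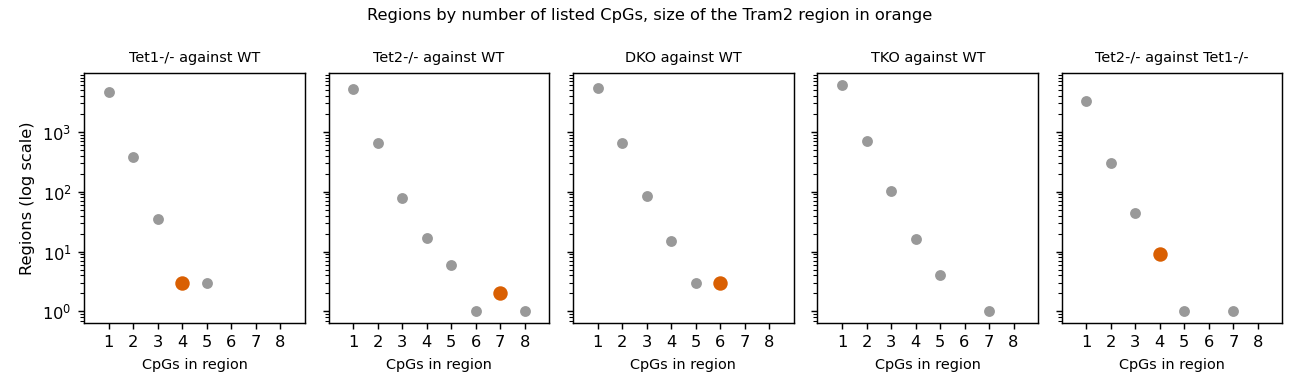
Number of regions (y axis, log scale) by the number of listed CpGs they hold (x axis) in each of the 5 lists, with CpGs within 1000 bp merged. Orange marks the size of the Tram2 region, 4 CpGs for Tet1-/-, 7 for Tet2-/-, 6 for DKO and 4 in the direct list. Regions with more CpGs number 3 for Tet1-/-, 1 for Tet2-/-, 0 for DKO and 2 in the direct list, and the TKO panel has no orange point.

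The repeat was rare in what RRBS can read. The motif CGTGCGTGCGTG, searched on both strands, occurred in 106 of 444898 MspI fragments of 40 to 350 bp on the assembled chromosomes (0.0238%). Listed CpGs in such fragments were those of Tram2 alone in 3 of the lists, with 4 for Tet1-/-, 6 for Tet2-/- and 4 in the direct list. The DKO list had 1 from another fragment beside the 6 of Tram2, and the TKO list had 0. Every CpG annotated as (CGTG)n in the Tet1-/-, Tet2-/- and direct lists was of Tram2. Tram2 was chosen from these lists, and the CpGs in reach in fragments with the motif were not counted. Nothing particular to Tram2 is therefore read from these counts. Simple repeats of any kind held 5 CpGs in the Tet1-/- list, 11 in the Tet2-/- list, 8 in the TKO list and 8 in the direct list, of which 5, 10, 4 and 8 were higher. Of these CpGs 2, 4, 0 and 4 were those of Tram2. Over the whole lists 65.6, 77.7, 58.6 and 67% of entries were higher, and nothing about simple repeats is read from the counts. The cells were 129 derived, the reads were placed on mm9, and the length of the repeat in these clones was not measured.

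The pattern over the lists was set against that of other loci. Of 18204 regions merged over all lists, 37 besides Tram2 had a positive mean difference in the same 4 comparisons and were not listed for TKO. Some of them held losses as well as gains, since their means lay under 25 points, as at Gnas (4.49 points for Tet2-/-). Likeness was the distance between the 4 mean differences in points, over CpGs that need not be the same in each list. The nearest was a region of 2 CpGs 6042 bp downstream of the TSS of Israa (distance 12.0 points), with means of 43.8 points in each knockout against WT and 34.9 points in the direct list. It was followed by Ric8b (15.7 points, 1 CpG 43.0 kb downstream of its TSS), which encodes a chaperone of G protein subunits, and by a region 138 kb upstream of Thy1, a cell surface glycoprotein gene (17.2 points, 4 CpGs). Chrna10, a nicotinic receptor subunit gene (17.4 points, 2 CpGs), and Myo1e, which encodes an unconventional myosin (18.2 points, 1 CpG 1643 bp upstream of its TSS), came next. At Thy1 the means were 45.1 points for Tet1-/-, 68.5 for Tet2-/- and 32.5 for DKO, and at Myo1e 31.3, 69.4 and 40.4 points, in the authors' deposited tables. These 5 held 1 to 4 CpGs, against 7 for Tram2, and 1 region farther down the same ranking, at Helt, also held 7. Of the 326 regions counted as higher in Tet1-/-, Tet2-/- and DKO cells, 149 were also listed for TKO and 130 of them were counted as higher there. A region counted as higher may hold losses too.

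**Figure D5:**
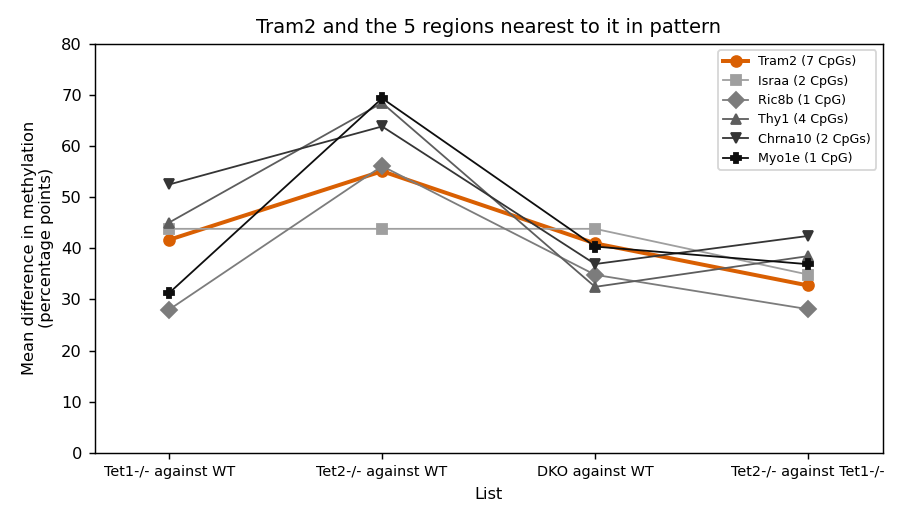
Mean difference in methylation in percentage points (y axis) of the Tram2 region (orange) and of the 5 regions nearest to it in pattern (grey) in the 4 lists that hold Tram2 (x axis). Lines join the values of a region for reading only. In 5 of the 6 regions the highest value is that of Tet2-/- against WT, and for Israa the 3 knockouts have 43.8 points each.

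Other genes of protein entry into the reticulum and of type I collagen synthesis were counted, 54 besides Tram2. All of them were in the annotation, where 53 of the list genes were protein-coding. A listed CpG at any distance was found for 22 of the 54 in at least 1 list, and within 2000 bp of the TSS for 5. Among all 22237 protein-coding genes besides Tram2 the shares were 36.4% and 8.14%, so that the 54 genes lay near the background. For Tet1-/- 10 genes had an entry (14.1% of protein-coding genes did), 5 with gains alone (8.36%) and 4 with losses alone (4.07%). For Tet2-/- 8 genes had one (15.9%), 5 with gains alone (11.2%) and 1 with losses alone (2.9%). For DKO 10 genes had one (14.8%), 6 with gains alone (8.51%) and 4 with losses alone (4.51%). For TKO 12 genes had one (18.6%), 4 with gains alone (9.29%) and 5 with losses alone (6.56%). In the direct list 7 genes had one (10.9%), 4 with gains alone (6.58%) and 2 with losses alone (3.24%). Gains and losses were both present in each list, and nothing particular to these genes is read from the counts.

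Of the Tram family, Tram1, the closest relative, had only distant entries. They were a gain of 25.4 points 26854 bp from the TSS in Tet1-/-, a gain of 29.3 points at 75841 bp in Tet2-/-, 26.2 points at 60394 bp in the direct list and 2 CpGs with -44 and -29.0 points in DKO cells. Tram1l1 had no entry in any list.

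Near a TSS, the entries of the other genes were all gains and single CpGs. Col1a2, which encodes a chain of type I collagen, had 32.2 points in Tet1-/- and 27.6 points in Tet2-/- cells 1538 bp from its TSS. Crtap, part of the collagen prolyl 3-hydroxylation complex, had 35.9 points in Tet1-/- cells at 1633 bp. Srp9, a subunit of the signal recognition particle, gained 32.9 points in DKO cells and 33.5 points in TKO cells at 1638 bp, and Ssr2, a subunit of the translocon-associated protein complex, had 31.4 points in DKO cells at 38 bp. Adamts2, which encodes the procollagen N-proteinase, had 25.9 points in TKO cells. Entries near the TSS were found for at most 2 knockouts in each of the 5, against 3 for Tram2. Tram2 was chosen for its entries in these lists, so nothing is read from that contrast. Atp2a2 had losses of -39.3 points in Tet1-/- and -26.7 points in TKO cells 15173 bp from its TSS. Runx2 had entries only far from its TSS, the nearest at 11401 bp. Gains were at 2 CpGs in Tet1-/- (28.2 and 32.1 points, the nearer at 196998 bp) and 4 CpGs in Tet2-/- cells (28.2 to 45.7 points). In TKO cells 2 CpGs had losses (-37.8 and -34.3 points). In the direct list 1 CpG had -26.2 points at 162661 bp.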

How the data were processed

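RRBS libraries of 12 ESC clones were processed by the authors. Per the labels and the methods, reads were trimmed with Trim Galore 0.5 (the first 6 bases of read 1 clipped) and aligned to mm9 with Bismark 0.19.1, CpGs with at least 10 reads were compared between groups with methylKit, and those past a q-value threshold and 25 points were annotated with HOMER. What the authors deposited is neither a level nor a count but another measure, the change in percent methylation of a CpG between pooled groups, beside its distance to the TSS in bp. Groups were taken from the sample titles. These differences are the authors' own comparisons and the only values used. Per-clone values were not analysed here.

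Positions were checked against NCBIM37, the assembly called mm9, where every listed position on an included sequence was a CpG. Reverse-strand positions of the direct list were moved to the forward cytosine. MspI fragments, repeats and sequences were computed from this assembly, gene coordinates came from GENCODE vM1, and MspI was assumed, since the enzyme is not given in the sources used here, and the fragment range of 40 to 350 bp was set after the fragments had been seen. CpGs within 1000 bp were merged into regions. DKO CpGs were assigned to genes of the lists by the nearest GENCODE TSS. The members, gene lists and rules were chosen with earlier results of these data known. The named genes were Tram2, the 5 regions nearest in pattern, list genes with a CpG within 2000 bp of a TSS, Tram1 and Tram1l1. Atp2a2, Runx2 and Serpinh1 were added after their values were seen. Alternatives were another distance, a minimum of 30 or 40 points, the median, the CpGs common to the lists, merging at 100 or 2000 bp and positions as deposited. Merging and strand assignment were tested on simulated data. Python 3.11.15 and pandas 2.3.3 were used.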

Additional observations from a re-analysis of the deposited data

How the results depend on the processing

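No result was tested, so the alternatives concern counts and means. No paired analysis was possible because the lists hold no value per clone, and for the same reason no clone could be left out. Of the alternative values, 35 were within 1.5 times the count or 1 SD over CpGs of the mean, and 9 were not. No mean changed sign, and TKO had 0 CpGs throughout. With a minimum of 40 points the number of Tram2 CpGs was 2 for Tet1-/- (4 at 25 points), 3 for DKO (6) and 0 in the direct list (5), which leaves no mean there, and with a minimum of 30 points the direct list had 3. Over the 2 CpGs common to 4 lists the DKO mean was 57.4 instead of 41.0 points. With the CpG 45574 bp upstream the mean of the direct list was 20.4 instead of 32.7 points. Merging at 100 bp left 1 DKO region with as many CpGs or more (3 at 1000 bp) and 7 regions in the direct list (11 at 1000 bp). With positions as deposited the direct and Tet2-/- lists shared 1 Tram2 CpG instead of 5. Unknown depth limits every value, and clones and genotypes cannot be told apart.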

Other observations

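Away from the TSS, Serpinh1, which encodes the collagen chaperone of the reticulum, had more entries in DKO cells than the other genes of the collagen list, with 4 CpGs from 44.4 to 100 points (mean 72.1 points), the nearest 2493 bp from its TSS. It was named after its values were seen, and it had no entry in the other 4 lists.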
